A study of Mus musculus with 2 samples.

Results

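The genes described here, 9 in number, belong to neuronal calcium signalling: the calmodulin genes Calm2 and Calm3, the calmodulin-binding protein gene Nrgn, the 4 genes of calcium/calmodulin-dependent protein kinase II (CaMKII; Camk2a, Camk2b, Camk2d and Camk2g), and 2 genes of the phosphatase calcineurin (Ppp3ca and Ppp3r1). The 9 genes were taken by name from a list of calmodulin, CaMKII and calcineurin genes, out of 55536 genes in the gene tables. The list does not hold every calmodulin or calcineurin gene of the mouse, so sums below cover only the genes named. The data are total RNA-seq of left cerebral cortex from female B6CASTF1/J mice, the F1 cross of C57BL/6J and CAST/EiJ, at 18 to 20 months of age, with no treatment named. There is 1 group of 2 libraries, replicates 1 and 2, each made from 300 ng of RNA with added ERCC spike-in RNAs. The labels give the libraries separate tissue samples but a single donor entry, so the spread between them may be technical, and without a contrast no test between groups could be made.

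Calmodulin is a small calcium sensor: with calcium bound to its EF-hand loops it wraps around short helical segments of its target proteins and alters their activity. CaMKII is such a target, a multi-subunit kinase concentrated at excitatory synapses, which once opened by calcium/calmodulin phosphorylates a threonine of its own regulatory segment and stays partly active after calcium falls. Calcineurin is the calcium/calmodulin-activated phosphatase that acts on an overlapping range of synaptic and nuclear substrates, and neurogranin holds calmodulin when calcium is low. CaMKII is a central enzyme of long-term potentiation in forebrain, and calcineurin of long-term depression.

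The tissue label was checked against marker genes. All 5 markers of excitatory cortical neurons reached 1 TPM in both libraries (TPM is transcript abundance per length, scaled to the same total in every library), with a summed level of 738 and 736 TPM. All 3 markers of inhibitory neurons, astrocytes, oligodendrocytes and microglia did so too, with summed levels of 282 and 238, 166 and 168, 181 and 166, and 55.1 and 50.5 TPM. None of the 3 cerebellar granule cell markers reached 1 TPM (Gabra6 and Barhl1 were at 0) and 1 of 3 choroid plexus markers did (Kl, 1.16 TPM in each). The gene tables held 32504959 and 24899781 expected counts, of which 32357983 and 24798683 were on genes. In bulk tissue, fewer cells of a type and less RNA per cell cannot be told apart.

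Each of the 9 genes reached 1 TPM in both libraries, where 58.3% of nuclear protein-coding genes did. The 9 were chosen with earlier results of these data known, so this contrast is no result about them. Their levels ran from 80.9 TPM for Camk2d to 1148 TPM for Camk2a, and the 9 together made up 1.08% of all TPM on nuclear protein-coding genes in each library. The counts behind these levels were between 4451 (Camk2d, replicate 2) and 86521 (Camk2a, replicate 1).

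**Figure D1:**
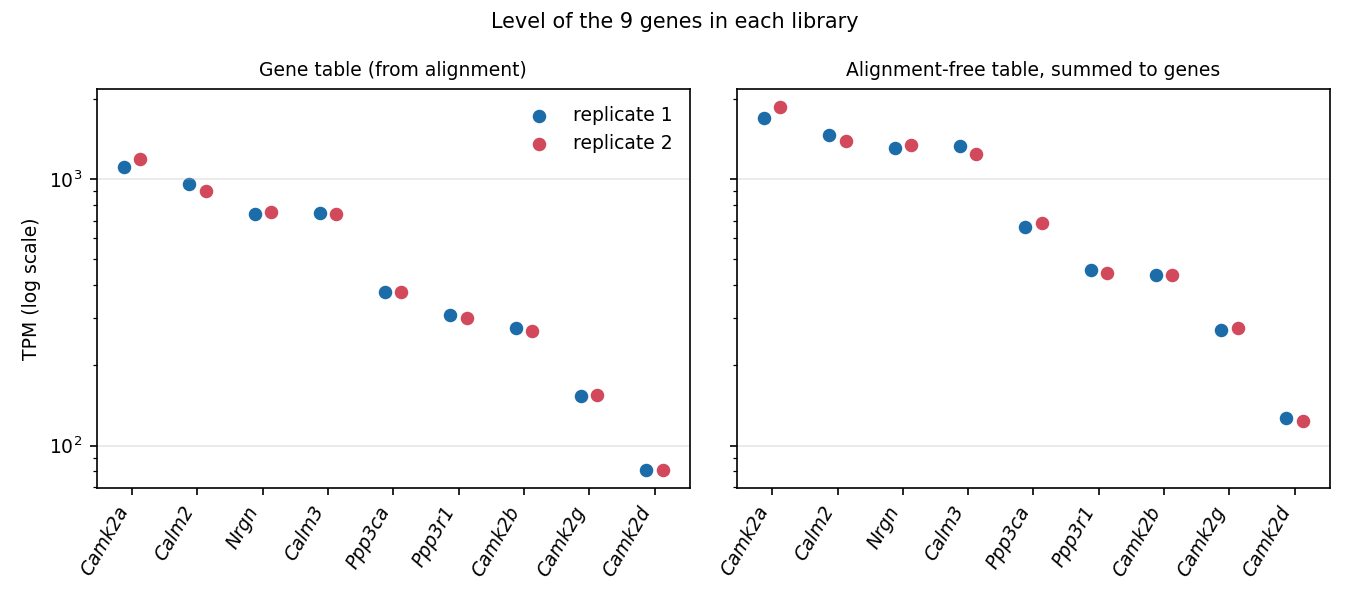
TPM (log axis) of each gene in each library, from the gene table on the left and from the alignment-free table, summed to genes, on the right; 1 point per library. Camk2a is highest and Camk2d lowest in both tables, and the points of Nrgn and Calm3 overlap.

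Calm2 and Calm3 encode the same protein. In their leading transcripts the coding sequences are 447 bases long and translate to 149 residues that are 100% identical, although 78 bases differ. Those differences fall in 76 codons, all 76 of them synonymous, with 74 of the 78 at the last position of a codon. One coding exon of each is printed because it shows how reads of these genes can be told apart; it spans the first calcium-binding loop. The reference sequences are from GENCODE M21 on mm10, minus strand for both genes, and capitals mark the 24 of 144 bases that differ.
Calm2, chr17:87435791-87435934: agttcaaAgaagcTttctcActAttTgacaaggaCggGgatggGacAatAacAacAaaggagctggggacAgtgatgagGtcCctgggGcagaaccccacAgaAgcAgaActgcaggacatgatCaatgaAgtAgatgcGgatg
Calm3, chr7:16917585-16917728: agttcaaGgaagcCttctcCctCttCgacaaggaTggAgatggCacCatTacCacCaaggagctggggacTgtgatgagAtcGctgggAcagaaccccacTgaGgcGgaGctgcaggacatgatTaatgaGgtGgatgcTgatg

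The level of Calm2 (chr17:87433412-87446935) was 963 TPM in the library of replicate 1 and 905 TPM in that of replicate 2. Calm3 (chr7:16915379-16924114) came to 745 and 741 TPM, lower than Calm2 in both libraries. The Calm2 level was 1.26 ± 0.0495 times that of Calm3 (SD, n = 2). By reads the order was the other way: Calm3 held 36689 and 27321 expected counts, and Calm2 23851 and 16622. The leading Calm3 transcript is 2290 bases long and that of Calm2 1205 bases, and per length Calm2 came out higher. In the alignment-free table the ratio was 1.11 ± 0.0131, still above 1 in each library. The Calm2 and Calm3 counts were not whole numbers in either library (more than 0.005 from one), so a part of their reads was divided between entries of the table. A count that was not whole in at least 1 library was found for 3 of the 9 genes, Ppp3r1 in replicate 2 being the other case, and for 18.2% of expressed genes. How many reads were divided was not measured, so the uncertainty that this adds to the levels is not known.

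Each calmodulin gene was represented by nearly a single transcript. Calm2-201 held 98.3% and 96.0% of its gene's TPM, and Calm3-201 99.5% and 99.8%. In the alignment-free tables Calm2-201 kept 99.1% and 98.2%, but Calm3-201 had 88.7% in replicate 1 and 95.4% in replicate 2. The alignment-free Calm3-201 share thus varied more between libraries (SD 4.71 points) than the alignment-based one (SD 0.155 points).

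Nrgn (chr9:37544492-37552904, minus strand) encodes neurogranin, a protein of 78 residues in dendrites and spines of forebrain neurons. Its calmodulin-binding IQ motif has its core at residues 33 to 43. The stretch around that core is printed as the site that ties this gene to calmodulin, with the codons of the core in capitals.
Nrgn, chr9:37546031-37546138: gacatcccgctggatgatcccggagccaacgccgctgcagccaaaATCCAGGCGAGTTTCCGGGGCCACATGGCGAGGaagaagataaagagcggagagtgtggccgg

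Replicate 1 held 738 TPM of Nrgn and replicate 2 held 753 TPM, from 22243 and 17057 counts. Nrgn-201 held 98.3% and 98.9% of it. Nrgn RNA amounted to 0.445 ± 0.0180 of the summed Calm2 and Calm3 RNA (0.488 ± 0.0292 in the alignment-free table). The Nrgn and Calm3 levels overlapped, with Calm3 higher in replicate 1 and Nrgn higher in replicate 2.

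The 4 CaMKII genes encode closely related subunits. Between the proteins of their leading transcripts, identity over the aligned residues ran from 84.3% (Camk2a and Camk2g) to 87.6% (Camk2b and Camk2g). The regulatory segment, which covers the autoinhibitory and calmodulin-binding part, is shown for 3 of them as the stretch on which calmodulin acts. Each run joins 2 exons, so that the coordinates span an intron, and capitals mark the codon of the autophosphorylated threonine, residue 287 in all 3 and residue 286 in Camk2a.
Camk2b, chr11:5988108-5989017, minus strand: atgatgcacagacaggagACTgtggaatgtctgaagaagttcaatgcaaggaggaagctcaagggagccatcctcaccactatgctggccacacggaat
Camk2d, chr3:126797723-126798273, plus strand: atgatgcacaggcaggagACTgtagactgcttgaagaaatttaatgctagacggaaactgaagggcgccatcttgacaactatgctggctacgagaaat
Camk2g, chr14:20760151-20760459, minus strand: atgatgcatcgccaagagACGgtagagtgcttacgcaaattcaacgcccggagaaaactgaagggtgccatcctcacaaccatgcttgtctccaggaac
Over these 33 residues Camk2a shares 32 with Camk2d, 31 with Camk2b and 28 with Camk2g.

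Camk2a (chr18:60925618-60988152), the alpha subunit of excitatory forebrain neurons, had a level of 1109 TPM in replicate 1 and of 1188 TPM in replicate 2. Camk2b (chr11:5969644-6066362), the beta subunit that also binds actin, stood at 277 and 270 TPM. Camk2g (chr14:20734875-20794088), the gamma subunit found in many tissues, stood at 154 and 155 TPM. Camk2d (chr3:126596302-126846326), the delta subunit best known from heart, stood at 80.8 and 80.9 TPM. The 4 genes kept this order in both libraries, and no 2 of them overlapped. By mean TPM, Camk2a ranked 2 among nuclear protein-coding genes, Camk2b 163, Camk2g 435 and Camk2d 1174. These ranks include transcripts annotated as incomplete, described below, and were not computed without them.

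Of the summed CaMKII TPM, Camk2a made up 68.4% and 70.1%, Camk2b 17.1% and 15.9%, Camk2g 9.50% and 9.16%, and Camk2d 4.99% and 4.78%. The alpha to beta ratio was 4.01 in replicate 1 and 4.41 in replicate 2. The alignment-free table gave a similar make-up, with Camk2a at 68.0% ± 1.43 and a ratio of 4.08 ± 0.266. The summed CaMKII level was 1620 and 1693 TPM, against 1708 and 1646 TPM for Calm2 plus Calm3. Those sums overlapped: CaMKII RNA was the lower in replicate 1 and the higher in replicate 2.

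Part of the Camk2a and Camk2g levels came from transcripts that the annotation marks as incomplete at an end. Camk2a-207, a model of 530 bases, held 27.3% and 25.2% of Camk2a TPM but 3.40% and 3.10% of its counts. Incomplete models held 34.0% and 33.1% of Camk2g TPM, 9.29% and 5.03% of Camk2d TPM, and 0 of Camk2b TPM. Summed without them, a setting chosen after seeing the data, Camk2a came to 806 and 889 TPM, below Calm2 in both libraries. Its share of CaMKII was then 65.2% ± 1.61, and the alpha to beta ratio 3.11 ± 0.271. The Camk2g to Camk2d ratio went from 1.91 ± 0.00762 to 1.37 ± 0.0261, and the summed CaMKII level fell to 1258 and 1339 TPM, below that of Calm2 plus Calm3 in both libraries. Camk2a remained the highest of the 4 and Camk2d the lowest.

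**Figure D2:**
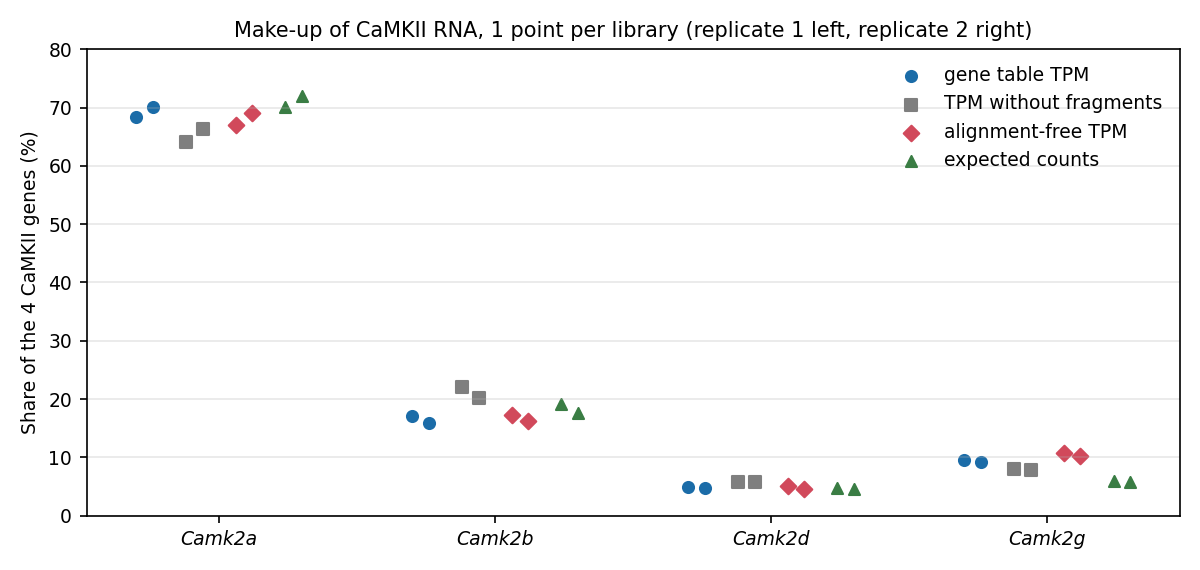
Share of each CaMKII gene in the sum of the 4 (percent), by 4 measures; each pair of points is replicate 1 (left) and replicate 2 (right). Camk2a lies between 64.1% and 72.1% by every measure plotted, Camk2b follows, and Camk2g is closest to Camk2d by expected counts.

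CaMKII genes vary mainly by alternative exons in the linker between the regulatory segment and the hub that joins the subunits. The share of inclusion given here is the TPM of transcripts with an exon, out of those that either have it or skip it and run across it. Intron-retaining transcripts, and forms that overlap the exon with other bounds, were left out. The share thus rests on the annotated combinations. The leading transcript was the same in all 4 transcript tables for all 9 genes, but how much it led differed: 90.1% ± 1.83 for Camk2b-209, 62.9% for Camk2a-203, 29.5% ± 1.11 for Camk2d-206 and 24.4% ± 2.18 for Camk2g-201.

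**Figure D3:**
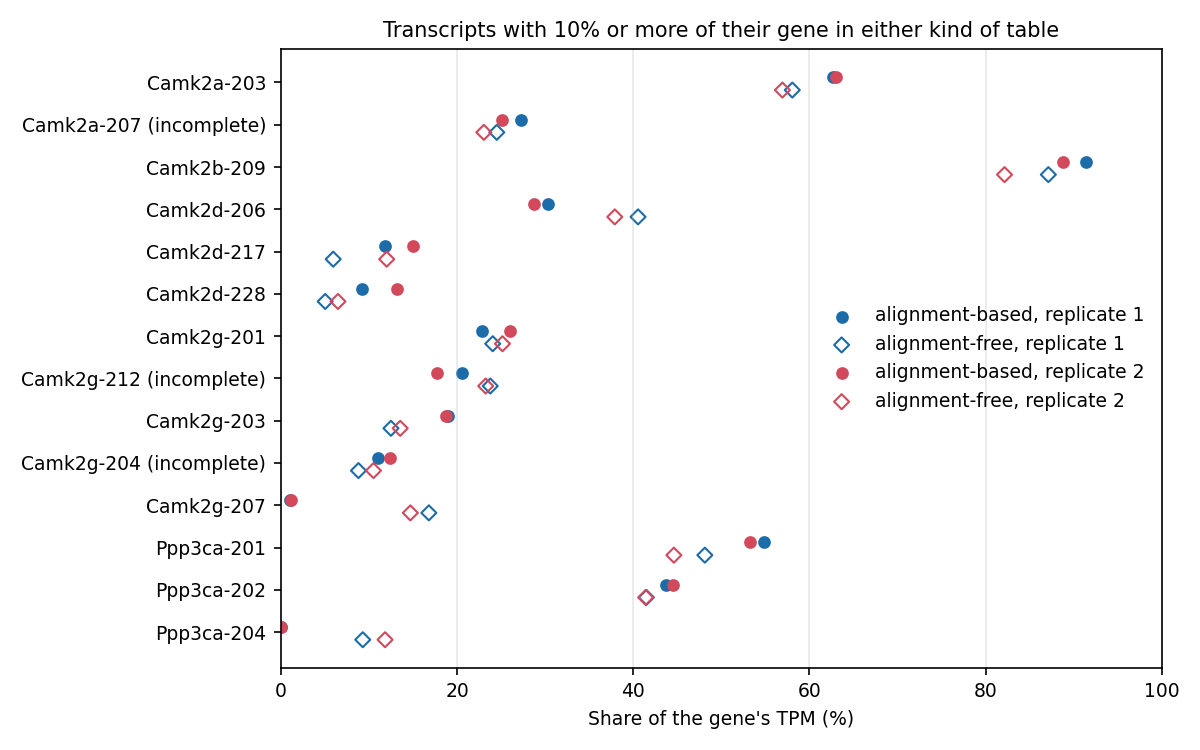
Share of the gene's TPM (percent) for each transcript with at least 10% in either kind of table, for the 4 CaMKII genes and Ppp3ca; filled circles are alignment-based, open diamonds alignment-free, colours are the libraries. Camk2b has a single such transcript and Camk2g has 5, and Camk2g-207 and Ppp3ca-204 stand near 0 in the alignment-based tables only.

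Camk2a was mostly the form without its 33-base linker exon. Transcripts with that exon held 12.4% in replicate 1 and 12.2% in replicate 2, and 12.9% and 12.04% in the alignment-free tables. The longer product, known as the alpha-B form, carries a nuclear localization signal. The annotated transcripts also differ at the 3′ end. Camk2a-201, which has the exon, runs 1627 bases beyond the stop codon. Of those without it, Camk2a-203 runs 3372 bases and Camk2a-202 917 bases. Camk2a-202 made up 1.33% of Camk2a TPM by alignment and 8.60% ± 1.70 without it. Reads of the 3′ end and reads of the exon both enter the inclusion share, and their parts were not tested.

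Most Camk2b TPM was assigned to a single long form, Camk2b-209. Its 75-base exon was included at 96.0% and 97.2%, its 72-base exon at 100% in each library, and its 45-base exon at 96.2% and 97.4%. The 3 exons of 129, 129 and 114 bases, which lengthen the linker further, had mean inclusion of at most 0.739%. A 33-base exon, which lies upstream of the regulatory segment and so outside the linker, had 0.0668%. In the alignment-free tables the first 3 stood at 92.2% ± 0.458, 98.9% ± 0.556 and 94.7% ± 1.13. The exons of 129, 129 and 114 bases stood at up to 1.90% ± 0.376 there. The 33-base exon stood higher than in the alignment-based tables, at 2.40% ± 0.627. By this share each of these exons thus stood near 0 or near 100% in both kinds of table. The annotated 3′ ends differ here too. Camk2b-209 runs 2184 bases beyond the stop codon, Camk2b-204 2156 and Camk2b-210 2126. The other complete coding forms run at most 260 bases (Camk2b-208). How far reads of the 3′ end set these shares was not tested.

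Camk2d had more than 1 form in use. A pair of 73-base exons in the kinase domain replace each other, and they are printed to show where their sequences differ. They share 50 of 73 bases, and capitals mark the bases that differ.
Camk2d 5′ exon, chr3:126770785-126770857, plus strand: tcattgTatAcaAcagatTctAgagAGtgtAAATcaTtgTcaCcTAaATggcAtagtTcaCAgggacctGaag
Camk2d 3′ exon, chr3:126771774-126771846, plus strand: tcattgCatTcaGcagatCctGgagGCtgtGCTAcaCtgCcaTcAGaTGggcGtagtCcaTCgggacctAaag
The 5′ exon took 82.4% in replicate 1 and 86.4% in replicate 2, and the 3′ exon 17.6% and 13.6%. The alignment-free tables gave the 5′ exon 80.04% and 82.7%. The 60-base linker exon was included at 76.7% and 81.3% (85.0% and 83.6% alignment-free), and the 42-base exon at 69.3% and 75.2% (73.8% and 83.0%). Without incomplete models the 42-base exon stood at 80.1% ± 1.65. Without intron-retaining transcripts, only 54.1 and 50.2 TPM of Camk2d entered the shares of the 73-base exons, the 33-base and the 60-base exon. That was less than for the exons of the other CaMKII genes. Camk2d-228 held 11.2% ± 2.82 of the gene's TPM, but 5.76% ± 1.02 in the alignment-free tables. Camk2d-217, an intron-retaining model of 618 bases, held 13.4% ± 2.22 and, alignment-free, 8.98% ± 4.29.

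The 33-base exons of Camk2d and Camk2g occupy the same place in the linker and are alike in 26 of 33 bases. They are printed as a pair because like sequences had different inclusion shares. In Camk2d the exon is known to give the nuclear delta-B form. Capitals mark the 7 bases that differ.
Camk2d, chr3:126802937-126802969, plus strand: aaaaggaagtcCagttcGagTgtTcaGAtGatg
Camk2g, chr14:20747819-20747851, minus strand: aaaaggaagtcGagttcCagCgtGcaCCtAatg
In Camk2d it was included at 1.18% in replicate 1 and 0% in replicate 2. That share rests on 1 transcript with the exon, Camk2d-205 (0.64 and 0 TPM), against 12 without it. For Camk2g the numbers of transcripts are 3 and 5. In Camk2g it was included at 53.0% and 54.7%. The alignment-free tables gave 1.13% and 0.339% for Camk2d, and 62.4% and 61.3% for Camk2g. The Camk2d and Camk2g values did not overlap in either kind of table, and the inclusion in Camk2a (above) lay between them. With incomplete models left out, the Camk2g value was 49.97% ± 4.53, and 58.5% ± 1.09 alignment-free.

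The 3 other Camk2g linker exons depended on incomplete models. The 69-base exon was included at 39.6% and 40.6%, and without those models at 63.1% ± 0.471. The 114-base exon had 14.3% and 16.7%, and without them 2.27% ± 0.437. The 63-base exon had 39.0% and 37.6%, all of it from incomplete models, and stood at 0 without them. A 55-base exon upstream of the linker was included at 97.9% and 97.1%. No incomplete model enters that share, so leaving such models out could not change it. The Camk2g-204 and Camk2g-212 models, incomplete and under 1000 bases long, held 11.7% ± 0.970 and 19.1% ± 1.99 of the gene's TPM but 3.46% ± 0.255 and 5.22% ± 0.589 of its counts. The complete forms Camk2g-201 and Camk2g-203 held 41.7% ± 3.34 and 31.0% ± 0.582 of the counts. Camk2g-207, a noncoding model of 551 bases, took 15.8% ± 1.49 of the TPM in the alignment-free tables and 1.09% ± 0.0951 in the others.

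**Figure D4:**
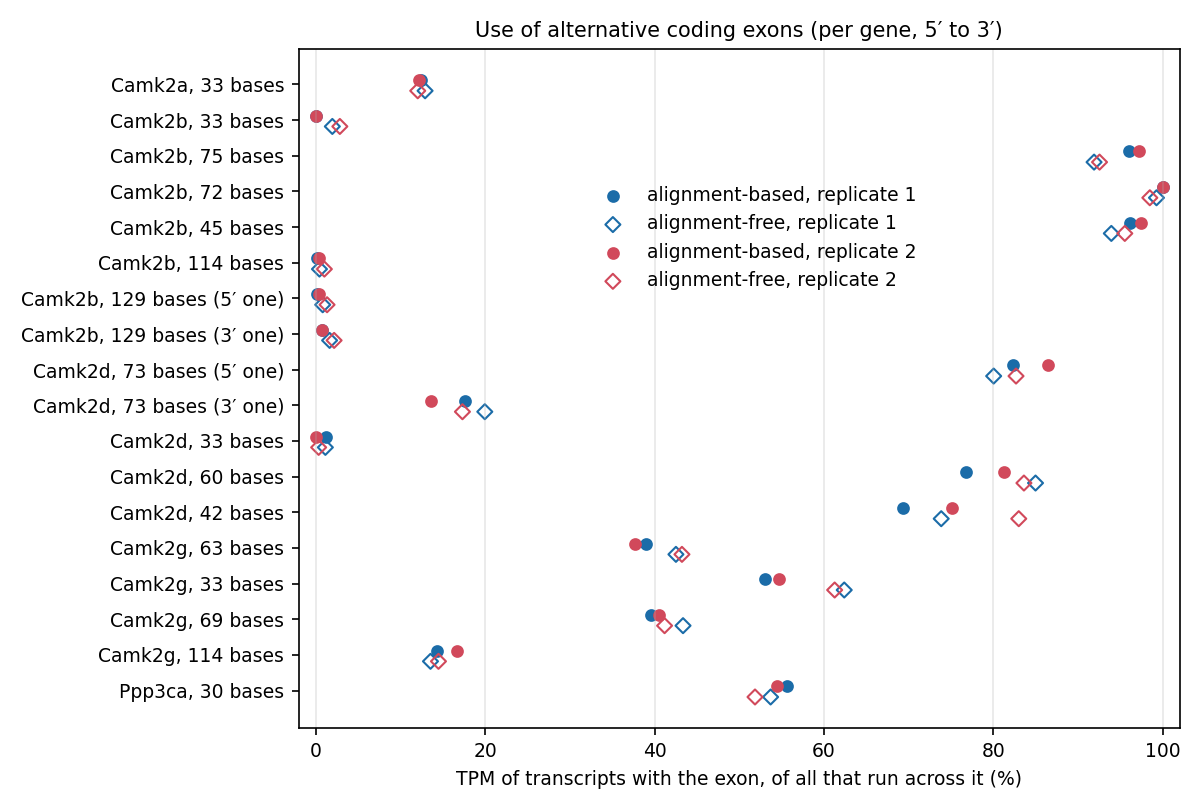
Inclusion of the alternative exons of the CaMKII genes and Ppp3ca whose length is a multiple of 3, and of the 73-base pair of Camk2d, in order along each gene. It is a percent of the TPM running across the exon, with intron-retaining transcripts left out. Filled circles are alignment-based, open diamonds alignment-free, colours are the libraries. The plotted Camk2b exons lie near 0 or near 100%, and the 4 plotted Camk2g exons between 13.5% and 62.4%.

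Calcineurin is a pair of a catalytic A subunit, which binds calmodulin, and a regulatory B subunit, which binds calcium itself. Ppp3ca (chr3:136670124-136937727), a catalytic subunit of 521 residues in its leading transcript, differed little between replicate 1 (377 TPM) and replicate 2 (376 TPM). Ppp3r1 (chr11:17159263-17200375), a regulatory subunit of 170 residues, stood at 309 and 300.4 TPM. Ppp3ca RNA was 1.22 and 1.251 times the Ppp3r1 level, and 1.496 ± 0.0647 times in the alignment-free table. The summed CaMKII level was 4.40 ± 0.145 times that of Ppp3ca. Wdr92, a protein-coding gene that overlaps Ppp3r1 on the same strand, held 168 and 130 counts, against 19142 and 13809 for Ppp3r1. The counts of both genes were whole in replicate 1 and not in replicate 2.

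Ppp3r1-201 held 99.4% and 98.3% of its gene's TPM, while Ppp3ca was divided between 2 forms. These differ by a 30-base exon near the autoinhibitory region, printed here as the segment that separates them and left in lower case since no part of it is singled out.
Ppp3ca, chr3:136932011-136932040, plus strand: ctactgttgaggctattgaggctgatgaag
Transcripts with the exon held 55.7% in replicate 1 and 54.5% in replicate 2, and 53.7% and 51.9% in the alignment-free tables. Ppp3ca-201, which has the exon, led by TPM with 54.8% and 53.3%, and Ppp3ca-202, which lacks it, had 43.7% and 44.5%. By counts Ppp3ca-202 was the larger, at 63.5% and 64.4%. The 2 forms also differ at the annotated 3′ end, with 554 bases beyond the stop codon in Ppp3ca-201 and 2502 in Ppp3ca-202. Ppp3ca-204, a noncoding model of 713 bases, took 9.30% and 11.8% in the alignment-free tables and at most 0.061% in the others.

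Put in order of mean TPM, the 9 genes ran Camk2a, Calm2, Nrgn, Calm3, Ppp3ca, Ppp3r1, Camk2b, Camk2g and Camk2d. Of the 8 pairs of neighbours, only Nrgn and Calm3 overlapped between libraries, with a ratio of means of 1.00. The nearest other neighbours were Ppp3r1 and Camk2b, whose ratio of means was 1.12. The alignment-free table gave the same order and again an overlap only for Nrgn and Calm3. Its Ppp3r1 and Camk2b levels were closer, with a ratio of 1.03.

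The TPM of the alignment-free table was higher than that of the gene table for each of the 9 genes, by a factor of 1.48 (Ppp3r1) to 1.79 (Ppp3ca). The factor was above 1.5 for 8 of 9, where it was so for 71.4% of expressed genes, and its median was 1.60 over the 9 and 1.61 over all expressed genes. Nuclear protein-coding genes held 44.05% and 44.2% of the TPM in the gene tables and 74.6% and 75.2% in the alignment-free tables. With both tables scaled to those genes, 0 of 9 differed by more than 1.5-fold either way, against 9.84% of expressed genes. The scaled ratio then ran from 0.872 (Ppp3r1) to 1.06 (Ppp3ca), with a median of 0.942 over the 9 and 0.948 over all.

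Between the libraries none of the 9 genes differed by more than 1.5-fold, where 14.3% of the 18246 genes tested did. These are log2 ratios of scaled counts, replicate 2 over replicate 1, over genes with a mean of at least 10 counts. The ratios ran from -0.14 for Calm2 to 0.07 for Camk2a, with a median of -0.04 against 0.00 over all genes. The 9 genes are deeply counted: among the 980 genes with at least the mean count of Camk2d, 0.714% passed 1.5-fold. The median absolute ratio was 0.05 over the 9 genes and 0.09 over those 980.

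The Calm2 ratio of -0.14 had a 95% exact binomial interval of -0.17 to -0.11, and the Camk2a ratio of 0.07 one of 0.06 to 0.09. Both intervals lay away from 0. So did those of Camk2b (-0.12 to -0.06), Ppp3r1 (-0.12 to -0.06), Calm3 (-0.07 to -0.02) and Ppp3ca (-0.06 to -0.01). All these intervals cover counting error alone and say nothing of the spread between samples. For Nrgn (-0.03 to 0.03), Camk2g (-0.06 to 0.04) and Camk2d (-0.10 to 0.02) the interval included 0. Scaling to the spike-ins moved the median of all genes by 0.16 on the log2 scale, and then all 9 ratios were above 0, from 0.02 to 0.23, where 8 of 9 had been below 0. No direction can be given for any of the 8. None is given for Camk2a either, since its ratio was 0.01 in the alignment-free counts, below its interval. In those counts the ratio of every gene but Camk2d lay outside its interval.

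**Figure D5:**
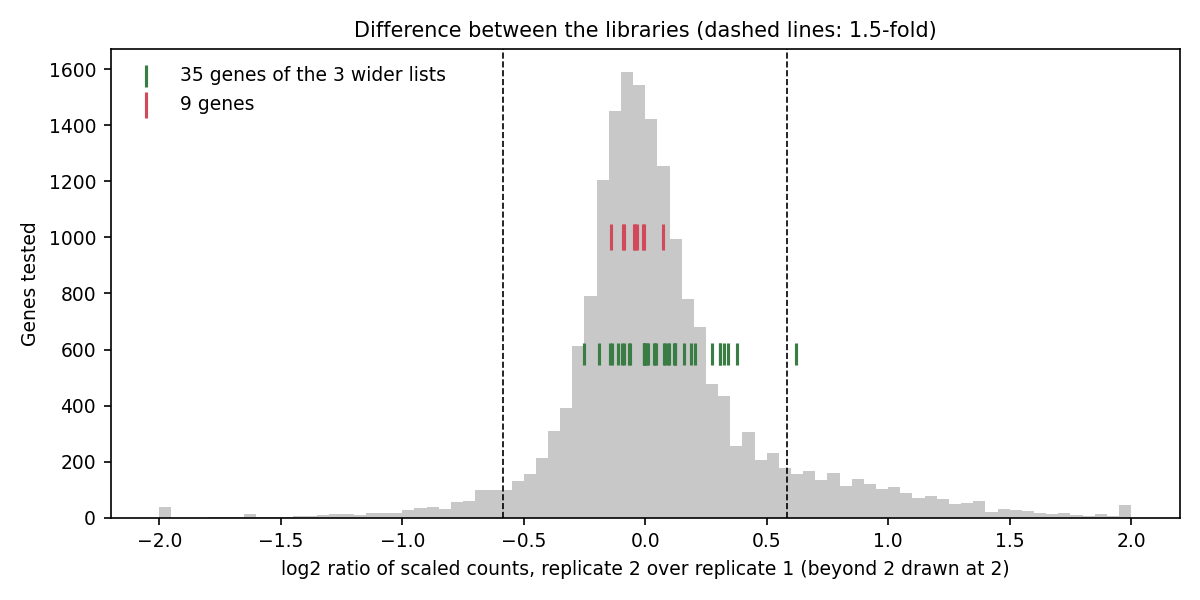
Histogram of the log2 ratio of scaled counts, replicate 2 over replicate 1, for the 18246 genes tested, with the 9 genes (upper ticks) and the 35 genes of the wider lists (lower ticks). Dashed lines mark 1.5-fold; the 9 genes lie between -0.14 and 0.07, and 1 of the 35 lies beyond a line.

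Around the 9 genes, 35 further genes of the pathway were followed in 3 lists. At least 1 TPM in both libraries was reached by 34 of 35, where 58.3% of nuclear protein-coding genes did so. The lists were chosen with earlier results of these data known, so this contrast is no result about the pathway. Between the libraries 1 of 35 differed by more than 1.5-fold either way, being higher in replicate 2, against 14.3% of all genes tested. That share covers genes with a mean of at least 10 counts and was not matched to the depth of the 35. The median log2 ratio of the 35 was 0.05.

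All 11 other CaM kinases and CaMKII inhibitors reached 1 TPM. The highest was Camk2n1, an endogenous inhibitor of CaMKII, which had 564 TPM (replicate 1) and 553 TPM (replicate 2), above Camk2b. Camkv, a kinase-like protein without known kinase activity, had 137 and 154 TPM. Camkk2, the kinase that activates CaMKI and CaMKIV, had 87.9 and 101 TPM. Camk2n2, the other inhibitor, had 80.8 and 85.4 TPM. Lowest was Camk1g, a CaMKI kinase, with 16.2 and 21.1 TPM. Camk2n1 RNA thus stood below Camk2a and above each of the other 3 CaMKII genes.

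All 10 other calmodulin-binding neuronal proteins reached 1 TPM. Pcp4, a small IQ-motif protein like neurogranin, had 185 and 172 TPM, well below Nrgn in both libraries. Gap43, the growth cone protein with an IQ motif, had 133 and 126 TPM. Myo5a, a myosin motor with calmodulin light chains, had 127 and 132 TPM, and Bsn, the presynaptic scaffold bassoon, 105 and 134 TPM. Iqcj was the lowest at 1.33 and 2.12 TPM, and it was the gene past 1.5-fold, with a log2 ratio of 0.62. It rests on 44.2 and 53.0 counts, its interval ran from 0.03 to 1.24, and in the alignment-free counts the ratio was 0.38, under 1.5-fold.

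Of 14 calcineurin regulators, anchors and targets, 13 reached 1 TPM. Dnm1, the dynamin of synaptic vesicle endocytosis that calcineurin dephosphorylates, was highest at 528 and 554 TPM, above Ppp3ca. Rcan2, a regulator that binds calcineurin, had 91.4 and 84.6 TPM. Crtc1, a CREB coactivator freed by dephosphorylation, had 64.8 and 66.4 TPM, and Ppp1r1a, a protein phosphatase 1 inhibitor, 62.8 and 67.8 TPM. Ppp3r2, a regulatory subunit gene known from testis, was lowest at 0.18 and 0.20 TPM from 12 and 10 counts, in contrast to Ppp3r1.

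Transcripts annotated to retain an intron exist for 5 of the 9 genes. Their share of the counts was highest for Camk2d, at 10.02% in replicate 1 and 15.3% in replicate 2, followed by Camk2g at 2.63% and 4.01%. It was under 1.5% in each library for Calm2, Camk2a and Ppp3ca. The share was higher in replicate 2 for 5 of 5, and so it was for 88.4% of comparable genes, a share close to the background and no result about the 9 genes. Pooled, the 9 genes had 0.505% and 0.851%, against 3.89% and 5.23% over all expressed nuclear coding genes. Genes without such a transcript enter the pool at 0 by annotation, and Camk2a gives it the most counts. The pooled share is thus no measure of the single genes. Within the span of Camk2d, 7 unclassified genes are annotated on its own strand, with up to 109 counts each in a library.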

How the data were processed

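Total RNA of left cerebral cortex was sequenced in 2 libraries. Per the file headers and the text deposited with each library, the authors gave an expected count and a TPM per gene and transcript from a transcriptome alignment, and an estimated count and TPM per transcript without alignment, on mm10 with GENCODE M21; aligner and quantifier: not given in the sources used here. TPM is per transcript length, scaled to the same total over all entries of a table. The deposited percent of each transcript within its gene was recomputed from TPM. The 9 genes and all gene lists were chosen with earlier results of these data known. Named genes are the 9, the 4 highest, the lowest and any gene past 1.5-fold in each wider list, and transcripts with 10% or more of a gene.

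Values are given per library or as mean ± SD (n = 2). Counts were scaled by TMM in edgeR 4.0.16 (R 4.3.3) with a prior count of 2 and a mean of at least 10 counts, tested on simulated data; with 1 library a side, no p-value was computed. Intervals are exact binomial (scipy). Alternatives were other scalings, thresholds, tables and incomplete models left out. Sequences are GENCODE reference, not the cross's alleles.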

Additional observations from a re-analysis of the deposited data

How the results depend on the processing

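The Camk2a share of CaMKII TPM, 69.3%, moved by more than the spread between libraries to 68.0% in the alignment-free table, 71.1% by expected counts and 65.2% without incomplete models, the last chosen after seeing the data; leaving out a replicate gave 68.4% to 70.1%. With posterior mean TPM, without incomplete models or without replicate 2, 7 of 9 genes kept their rank, and 9 of 9 in the alignment-free table and without replicate 1. None of the 9 passed 1.5-fold between libraries under the other scalings, prior count, filter and table tried, nor a smaller and a larger threshold. At 5 TPM, 29 of 35 pathway genes were counted, and 34 at 0.5 TPM. The leading transcript stayed common to all 4 tables for 9 of 9 among protein-coding transcripts alone and without incomplete models. No paired analysis was possible because there is 1 group. Each of the 9 levels rests on at least 4451 counts in each library. The Camk2d exon shares rest on less TPM than those of the other CaMKII genes, and reads over single exons were not counted.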
